A study of Mus musculus with 5 samples.

Results

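The genes described here are 32 genes of cell proliferation, taken by symbol from a fixed list of markers of DNA replication and cell division. All 32 of 32 were found among the 19061 gene rows of each library. The libraries came from hearts of C57BL/6 mice that all carried a calcineurin transgene driven by a myosin heavy chain promoter, which directs it to cardiomyocytes and is a model of severe cardiac hypertrophy. The vehicle group (2 libraries) and the JIB-04 group (3 libraries, 50 mg/kg) received their doses 3 times a week, starting at 4 weeks of age, until collection at postnatal day 158. JIB-04 inhibits Jumonji enzymes, which remove methyl groups from histones, and the comparison asks which transcripts differ in hearts given the compound. No heart without the transgene is included, so each difference below is between transgenic hearts given JIB-04 and transgenic hearts given vehicle. It is not stated in the labels that each library is a separate animal, so p-values measure only the spread between these libraries.

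A cell that divides first copies its DNA and then separates the copies. Replication uses the MCM helicase, the PCNA clamp and the enzymes that make deoxynucleotides, while division uses cyclins with Cdk1, mitotic kinases, the kinetochore and the spindle. Most of the division genes are transcribed late in the cell cycle, and their proteins are destroyed as mitosis ends. Cardiomyocytes of adult mice rarely divide, and most cycling cells of an adult heart are fibroblasts, endothelial cells and leukocytes. In whole tissue, fewer cycling cells and less of these RNAs per cycling cell cannot be told apart.

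Proliferation genes were detected in every library and did not differ between JIB-04 and vehicle beyond the spread between libraries. A single JIB-04 library, replicate 2, had the highest value of all 5 for 32 of the 32 genes. Its summed level was 328.9 CPM (reads per 1000000, as deposited), against 217.4 and 193.5 CPM in vehicle and 202.9 and 172.7 CPM in JIB-04 replicates 1 and 3. The 95% exact Poisson intervals, which cover counting error only, ran from 323.1 to 334.8 CPM for this library and did not reach above 222.2 CPM in any other. As a group JIB-04 stood at 235 ± 83 CPM (SD, n = 3) and vehicle at 205 ± 17 CPM (SD, n = 2).

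None of the 32 genes passed the threshold, an adjusted p of 0.05 with limma on log2(CPM + 0.1), where 0% of the 14414 genes tested passed. The smallest adjusted p of a member was 0.836, and 0 of 32 had an unadjusted p under 0.05, against 6.61% of all tested genes (4.11% higher and 2.5% lower). edgeR and DESeq2 on recovered reads and limma-voom also called 0 of 32, with 0 at an unadjusted p under 0.05, while DESeq2 called 0.458% of all genes it tested. JIB-04 and vehicle values overlapped for 32 of 32 members, while 22.8% of all tested genes had groups that did not overlap. The median log2 fold change of the members was 0.18, with 27 values above 0, beside a median of -0.01 and 46.5% above 0 over all tested genes. Without JIB-04 replicate 2 that median was -0.20, with 4 of 32 values above 0 (47.1% of all genes) and 1 of 32, Aurkb, at an unadjusted p under 0.05 (5.4% of all genes). It was 0.01 without vehicle replicate 2, 0.44 without JIB-04 replicate 3, 0.30 without JIB-04 replicate 1 (where 0 members and 0.265% of all genes passed), 0.29 without vehicle replicate 1 and 0.30 with edgeR. So the sign of the group difference rested on which libraries were kept, and JIB-04 replicate 2 was the library whose removal turned it.

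**Figure D1:**
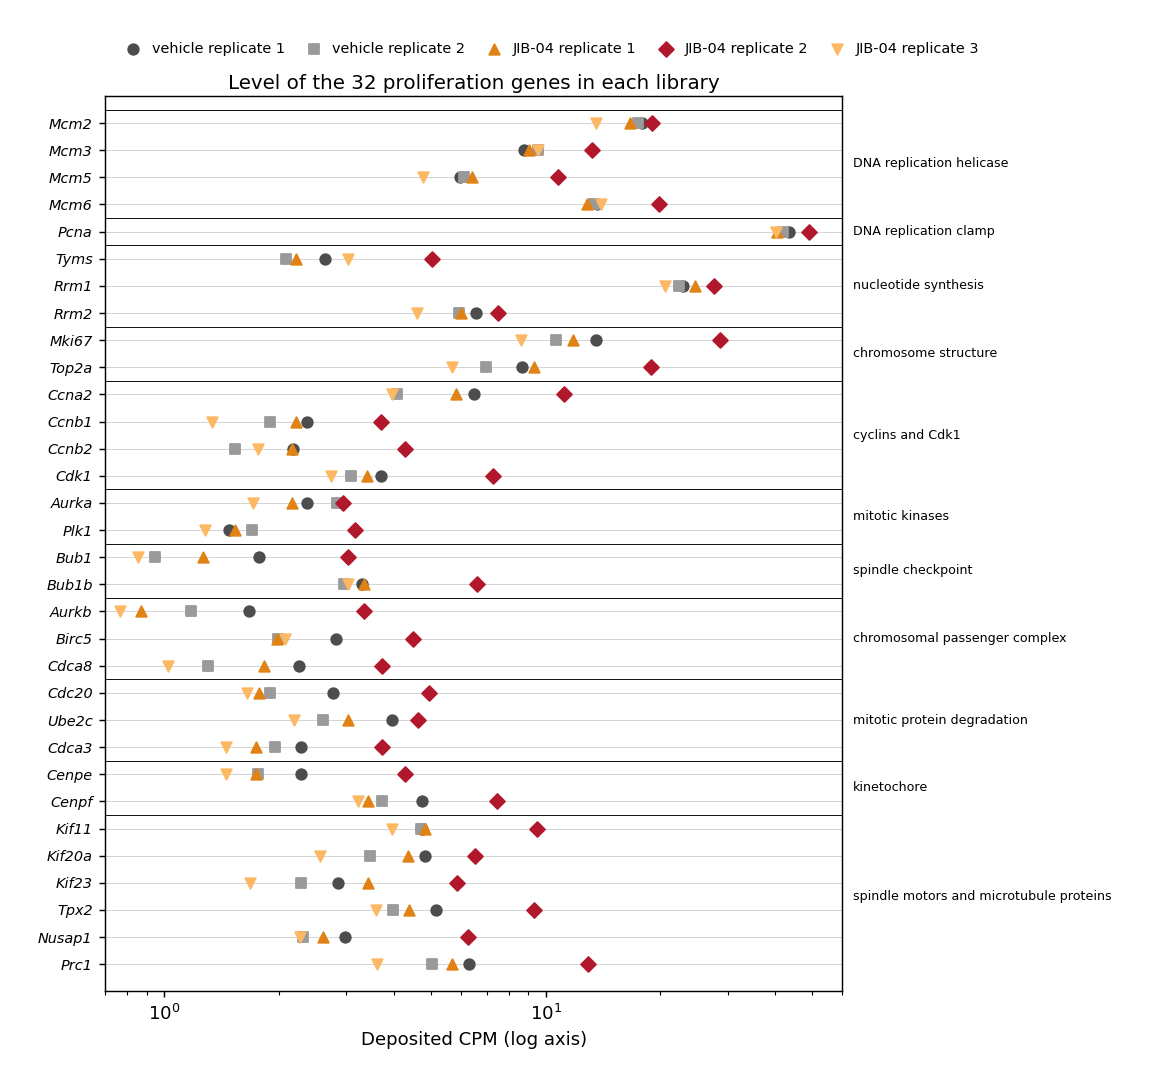
Deposited CPM (log axis) of the 32 genes, grouped by role, with 1 point per library. JIB-04 replicate 2 lies to the right of the other 4 libraries in all 32 rows. Its ratio to the mean of the others is smallest for Mcm2 (1.16) and largest for Aurkb (2.99), and for Aurka vehicle replicate 2 lies just to its left (2.83 against 2.95 CPM).

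The libraries held 32152168 to 37002846 recovered reads each, so depth was similar. Cardiomyocyte transcripts were abundant in each library, with Myh6 at 19599 to 27882 CPM, and Ppp3ca, whose row can take up transgene reads, at 4341 to 8022 CPM. Members were of low abundance, with a median of 3.95 CPM over the 5 libraries, against 18.1 CPM for all tested genes. The lowest value of a member was 27 reads (Aurkb in JIB-04 replicate 3) and the highest 1835 (Pcna in JIB-04 replicate 2), where 1 read was worth 0.0268 to 0.0326 CPM. All 32 passed the filter on low reads, so none is left out of any count.

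The difference between libraries was larger in division genes than in replication genes. The 24 genes of chromosome structure, cyclins and mitosis summed to 95.5 and 74.8 CPM in vehicle and to 84.6, 176.8 and 62.4 CPM in JIB-04. In JIB-04 replicate 2 this sum was 2.23 times the mean of the other 4 libraries. Counting error was small beside this, with an interval of 172.6 to 181.1 CPM for that library. The 8 genes of replication and nucleotide synthesis summed to 121.9 and 118.7 CPM in vehicle and to 118.3, 152.1 and 110.3 CPM in JIB-04, where replicate 2 stood at 1.30 times the mean of the others. Division genes therefore made up 53.8% of the summed level in JIB-04 replicate 2, against 36.1% to 43.9% in the other libraries. The lowest library for division genes was JIB-04 replicate 3 in 21 of 24, where 19.9% of all tested genes were lowest in that library. Vehicle replicate 1 was above vehicle replicate 2 in 22 of 24, against 47.0% of all tested genes. Thus the dosed group held both the highest and the lowest division values, with the vehicle libraries between them.

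**Figure D2:**
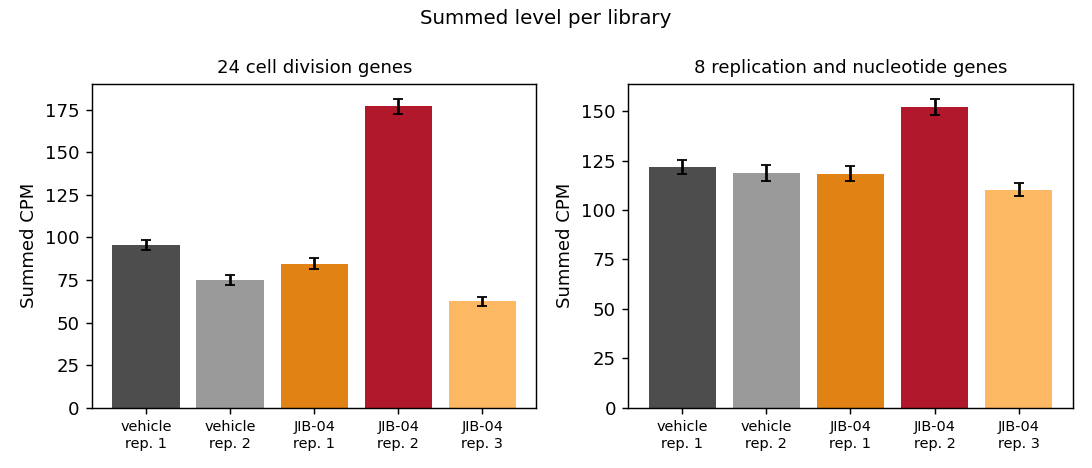
Summed CPM per library of the 24 division genes (left) and the 8 replication and nucleotide genes (right), with bars from 0 and 95% exact Poisson intervals for counting error only. Division genes reach 176.8 CPM in JIB-04 replicate 2 and 62.4 to 95.5 CPM in the other libraries, and replication genes 152.1 CPM against 110.3 to 121.9 CPM.

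Promoters of division genes are known for a short element, the cell cycle genes homology region or CHR, that often lies downstream of CCAAT boxes and is bound by the MuvB core of the DREAM and MYB-MuvB complexes. Replication gene promoters more often carry E2F sites. The RefSeq windows (GRCm38.p6, 250 bases before to 50 after the annotated start) were searched on both strands for TTTGAA (CHR), CCAAT and 4 spellings of the E2F site, TTTCCCGC, TTTCGCGC, TTTGCCGC and TTTGGCGC. Of the 32 members 28 had a window. The CHR letters were in 15 of 20 division windows and 1 of 8 replication windows, against 17.9% of all 32851 windows. CCAAT was in 18 of 20 and 7 of 8, against 37.4%, and an E2F spelling in 1 of 20 and 3 of 8, against 2.26%. The E2F spellings can overlap each other, and TTTGAA and CCAAT on opposite strands can share a base. The 250 bases before the start are shown for 6 members, chosen after the values were seen, to set 4 division genes with a large excess in JIB-04 replicate 2 beside Mcm6 and Pcna, where it was smaller. They are Mki67 (chr7:135716380-135716629), Top2a (chr11:99024190-99024439), Cdk1 (chr10:69352913-69353162), Cdc20 (chr4:118437344-118437593), Mcm6 (chr1:128359706-128359955) and Pcna (chr2:132253181-132253430), all on the minus strand of mm10. Each is written 5′ to 3′ along the gene, with the letters of any of the 3 motifs, on either strand, in capitals.
Mki67: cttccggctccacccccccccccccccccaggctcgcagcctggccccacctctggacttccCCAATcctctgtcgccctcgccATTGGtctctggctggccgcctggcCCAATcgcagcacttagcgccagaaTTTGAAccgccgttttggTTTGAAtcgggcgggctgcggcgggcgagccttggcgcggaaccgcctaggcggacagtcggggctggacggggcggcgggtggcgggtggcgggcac
Top2a: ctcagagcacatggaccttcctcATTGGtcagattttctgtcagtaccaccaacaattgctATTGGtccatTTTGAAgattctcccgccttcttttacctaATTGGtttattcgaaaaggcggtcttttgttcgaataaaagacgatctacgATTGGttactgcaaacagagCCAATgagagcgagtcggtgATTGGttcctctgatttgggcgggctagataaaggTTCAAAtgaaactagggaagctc
Cdk1: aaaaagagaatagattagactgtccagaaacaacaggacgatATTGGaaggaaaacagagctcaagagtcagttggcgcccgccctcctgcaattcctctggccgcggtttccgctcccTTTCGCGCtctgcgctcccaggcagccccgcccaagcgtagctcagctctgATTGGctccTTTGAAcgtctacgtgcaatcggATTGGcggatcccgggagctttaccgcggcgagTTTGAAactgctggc
Cdc20: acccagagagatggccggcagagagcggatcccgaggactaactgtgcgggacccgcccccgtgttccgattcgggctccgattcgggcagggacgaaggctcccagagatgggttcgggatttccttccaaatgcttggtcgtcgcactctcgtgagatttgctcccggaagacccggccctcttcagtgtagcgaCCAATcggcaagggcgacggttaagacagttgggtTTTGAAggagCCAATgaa
Mcm6: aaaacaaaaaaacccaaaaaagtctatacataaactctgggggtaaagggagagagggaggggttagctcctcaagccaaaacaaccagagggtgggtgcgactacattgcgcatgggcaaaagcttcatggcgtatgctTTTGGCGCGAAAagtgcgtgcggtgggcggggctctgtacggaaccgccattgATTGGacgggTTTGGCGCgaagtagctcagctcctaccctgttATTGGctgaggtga
Pcna: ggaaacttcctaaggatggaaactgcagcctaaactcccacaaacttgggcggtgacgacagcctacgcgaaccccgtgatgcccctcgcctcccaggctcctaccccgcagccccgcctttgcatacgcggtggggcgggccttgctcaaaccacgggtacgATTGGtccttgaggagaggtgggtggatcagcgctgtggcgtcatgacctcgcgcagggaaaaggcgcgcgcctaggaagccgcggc

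In these windows Mki67 has a pair of CHR matches, from -116 and -98 relative to the annotated start, and Cdk1 a pair from -71 and -15. Top2a has them from -179 and, on the opposite strand, from -23, and Cdc20 has 1 from -18. Mcm6 has no CHR letters and 3 E2F matches, of which a pair overlap, and Pcna has a CCAAT match alone. A match is only a run of letters, and binding was not measured. Among members with a window, the median excess in JIB-04 replicate 2 was 2.18-fold with the CHR letters and 1.87-fold without them. Of the 16 windows with the letters 15 were of division genes, so this contrast mixes the letters with the role group. The division genes without them, Ccnb1, Birc5, Cenpe, Nusap1 and Bub1, were at 1.89, 2.03, 2.37, 2.46 and 2.51-fold. The median of all 24 division genes was 2.22-fold. Mcm2, with the smallest excess (1.16-fold), has the CHR letters.

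The MCM subunits form the helicase that unwinds DNA at replication forks. Mcm2 (chr6:88883473-88898780) was at 17.9 and 17.5 CPM in vehicle and 16.6, 19.0 and 13.6 CPM in JIB-04. Mcm3 was at 8.76 and 9.54 CPM in vehicle and 9.03, 13.2 and 9.52 CPM in JIB-04. Mcm6 was at 13.6 and 13.3 CPM in vehicle and 12.8, 19.8 and 14.0 CPM in JIB-04. Vehicle libraries lay close together for these 3 genes, and JIB-04 replicate 2 alone stood clear of them for Mcm3 and Mcm6, while for Mcm2 the 5 libraries ran together apart from a low JIB-04 replicate 3. Mcm5, the other subunit on the list, had 1.85 times the mean of the other libraries in JIB-04 replicate 2. The 4 log2 fold changes were between -0.12 and 0.19. The most precise of them, Mcm2, was -0.12 (SE 0.14), with a limma 95% interval of -0.46 to 0.21 and an adjusted p of 0.883.

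PCNA is the sliding clamp that holds DNA polymerase on its template and also serves in DNA repair, which may run in cells that do not divide. Pcna was the most abundant member per length, at 43.5 and 41.8 CPM in vehicle and 40.5, 49.2 and 40.2 CPM in JIB-04. JIB-04 replicate 2 was highest by a narrow margin, and the other JIB-04 libraries were just below both vehicle libraries. Its log2 fold change was 0.01 (SE 0.10), the smallest SE among the 32, with a limma 95% interval of -0.23 to 0.26 (adjusted p = 0.984). This interval is the narrowest bound that any member gives on a group difference.

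Deoxynucleotides are made by ribonucleotide reductase, whose large subunit is Rrm1 and whose cell cycle subunit is Rrm2, and by thymidylate synthase, Tyms. Tyms was at 2.63 and 2.08 CPM in vehicle and 2.22, 5.04 and 3.04 CPM in JIB-04. Rrm1 was at 22.9 and 22.4 CPM in vehicle and 24.7, 27.7 and 20.5 CPM in JIB-04. Rrm2 was at 6.56 and 5.93 CPM in vehicle and 6.00, 7.50 and 4.60 CPM in JIB-04. Tyms differed from the reductase genes in that JIB-04 replicates 2 and 3 were above both vehicle libraries and replicate 1 lay between them. It had the smallest unadjusted p of the 32 members, with a log2 fold change of 0.45 (SE 0.33), a limma 95% interval of -0.33 to 1.24 and an adjusted p of 0.836. For Rrm1 and Rrm2 the values were 0.09 and -0.07, each under its SE (0.13 and 0.21).

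Ki-67 coats mitotic chromosomes and keeps them apart, and topoisomerase II alpha untangles sister DNA. Mki67 (chr7:135689787-135716379) was at 13.5 and 10.6 CPM in vehicle and 11.8, 28.7 and 8.61 CPM in JIB-04. In reads this was 503 and 327 in vehicle and 393, 1072 and 303 in JIB-04. Top2a (chr11:98992946-99024189) was at 8.68 and 6.97 CPM in vehicle and 9.30, 18.9 and 5.68 CPM in JIB-04. Both genes showed the same order of extremes, with JIB-04 replicate 2 highest at about 2.5 times the mean of the other libraries (2.58 and 2.47) and JIB-04 replicate 3 lowest. The log2 fold change of Mki67 was 0.25 (SE 0.46), limma's 95% interval ran from -0.84 to 1.34 (adjusted p = 0.925), and the value was -0.25 without JIB-04 replicate 2. That of Top2a was 0.36 (SE 0.44), and -0.10 without the same library.

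Cyclin A2 and the B cyclins activate Cdk1, the kinase that starts mitosis. Ccna2 was at 6.50 and 4.07 CPM in vehicle and 5.82, 11.2 and 3.95 CPM in JIB-04. Ccnb2 was at 2.18 and 1.53 CPM in vehicle and 2.16, 4.29 and 1.76 CPM in JIB-04. Cdk1 (chr10:69336634-69352912) was at 3.71 and 3.09 CPM in vehicle and 3.39, 7.29 and 2.73 CPM in JIB-04. For these 3 genes JIB-04 replicate 1 lay between the vehicle libraries and JIB-04 replicate 2 was at 2.20 to 2.26 times the mean of the others. Ccnb1 was at 1.89 times that mean. Log2 fold changes of the 4 ran from 0.07 to 0.46, and the largest of all members was that of Ccnb2, 0.46 (SE 0.38), with a limma adjusted p of 0.855. It was 0.09 without JIB-04 replicate 2.

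Aurora A and Polo-like kinase 1 drive centrosome maturation and spindle assembly. Aurka was at 2.36 and 2.83 CPM in vehicle and 2.16, 2.95 and 1.70 CPM in JIB-04. Plk1 was at 1.48 and 1.69 CPM in vehicle and 1.53, 3.16 and 1.28 CPM in JIB-04. Aurka stood out among division genes for its small excess in JIB-04 replicate 2 (1.30 times the mean of the others), where vehicle replicate 2 reached nearly the same level. Plk1 had 2.11 times that mean. Aurka had the lowest log2 fold change of the 32, -0.22 (SE 0.25), with a limma adjusted p of 0.883.

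Bub1 and BubR1, the product of Bub1b, delay anaphase until chromosomes are attached. Bub1 was at 1.77 and 0.94 CPM in vehicle and 1.26, 3.03 and 0.85 CPM in JIB-04. Bub1b was at 3.31 and 2.96 CPM in vehicle and 3.33, 6.62 and 3.04 CPM in JIB-04. For Bub1 the vehicle libraries themselves differed, with 66 and 29 reads, and 3 libraries lay at 29 to 42 reads, so precision was low (SE 0.52). Bub1b was nearly level in 4 libraries and 2.09 times their mean in JIB-04 replicate 2.

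The chromosomal passenger complex, with Aurora B kinase, survivin (Birc5) and borealin (Cdca8), corrects attachments and guides cytokinesis. Aurkb (chr11:69045642-69051662) was at 1.67 and 1.17 CPM in vehicle and 0.87, 3.35 and 0.77 CPM in JIB-04. Birc5 was at 2.82 and 1.99 CPM in vehicle and 1.98, 4.50 and 2.07 CPM in JIB-04. Cdca8 was at 2.26 and 1.30 CPM in vehicle and 1.83, 3.72 and 1.02 CPM in JIB-04. JIB-04 replicate 2 exceeded the mean of the others 2.99-fold for Aurkb, the largest ratio among the 32, and 2.03 and 2.32-fold for Birc5 and Cdca8. The other JIB-04 libraries had the lowest Aurkb values, 29 and 27 reads against 62 and 36 in vehicle. Accordingly the log2 fold change of Aurkb was -0.07 (SE 0.59), and without JIB-04 replicate 2 it was -0.71, with an unadjusted limma p of 0.036 and an adjusted p of 0.899. By edgeR on the recovered reads it was 0.24, so its sign depended on the scale as well.

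Cdc20 activates the anaphase promoting complex, Ube2c is the ubiquitin-conjugating enzyme that works with it, and Cdca3 has been tied to the turnover of Wee1. Cdc20 was at 2.77 and 1.89 CPM in vehicle and 1.77, 4.93 and 1.65 CPM in JIB-04. Ube2c was at 3.95 and 2.60 CPM in vehicle and 3.03, 4.63 and 2.19 CPM in JIB-04. Cdca3 was at 2.28 and 1.95 CPM in vehicle and 1.74, 3.72 and 1.45 CPM in JIB-04. JIB-04 replicate 2 was highest for each, but vehicle replicate 1 came close to it for Ube2c, where the counting intervals of these libraries overlapped. Log2 fold changes ran from -0.03 to 0.09. Without JIB-04 replicate 2 they were -0.40, -0.31 and -0.39 for Cdc20, Ube2c and Cdca3, none with an adjusted p below 0.987 by limma.

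CENP-E is a kinetochore motor and CENP-F a large protein of the kinetochore and nuclear matrix. Cenpe was at 2.28 and 1.76 CPM in vehicle and 1.74, 4.29 and 1.45 CPM in JIB-04. Cenpf was at 4.73 and 3.71 CPM in vehicle and 3.42, 7.47 and 3.21 CPM in JIB-04. In both, JIB-04 replicates 1 and 3 were below the lower vehicle library, vehicle replicate 2, but their counting intervals overlapped its interval. Their log2 fold changes were 0.14 (SE 0.44) and 0.05 (SE 0.36).

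The last group builds and bundles the spindle. Kif11, the motor that pushes spindle poles apart, was at 4.73 and 4.72 CPM in vehicle and 4.83, 9.51 and 3.95 CPM in JIB-04. Kif23, a motor of the central spindle, was at 2.85 and 2.28 CPM in vehicle and 3.42, 5.84 and 1.68 CPM in JIB-04. Nusap1, which binds spindle microtubules, was at 2.98 and 2.31 CPM in vehicle and 2.61, 6.27 and 2.27 CPM in JIB-04. Kif11 was level in vehicle (SD 0.006 CPM) and in JIB-04 replicate 1, so the excess of JIB-04 replicate 2 was the main feature of that gene. Prc1, Tpx2 and Kif20a, a bundling protein, an activator of Aurora A and another motor, were at 2.50, 2.18 and 1.71 times the mean of the others in that library. All 6 log2 fold changes were above 0, from 0.03 to 0.34, and all 6 were below 0 without JIB-04 replicate 2.

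**Figure D3:**
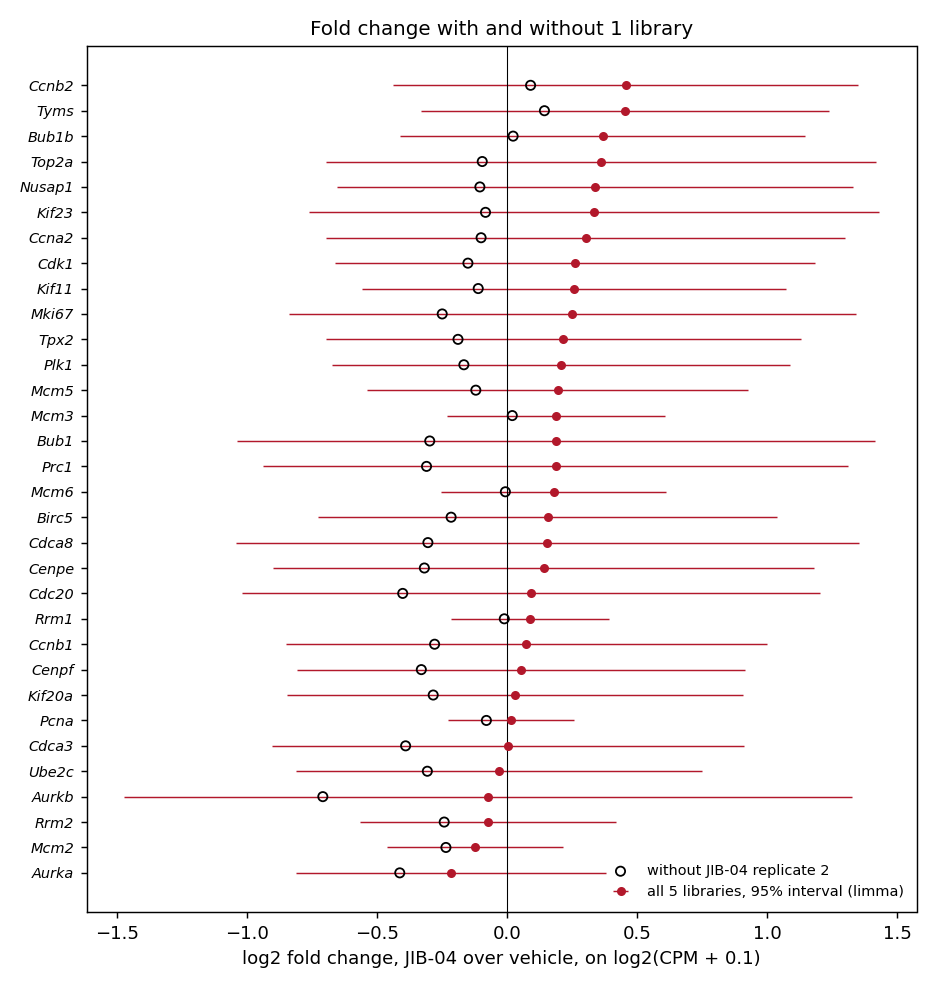
Log2 fold change of JIB-04 over vehicle on the log2(CPM + 0.1) scale for each gene, ordered by value, with limma 95% intervals (filled) and the value without JIB-04 replicate 2 (open). All 32 intervals include 0, 27 filled points lie above 0, and 4 open points do.

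Precision differed between the role groups. Standard errors were 0.10 to 0.33 for the 8 replication and nucleotide genes and 0.25 to 0.59 for the 24 division genes. The median residual SD was 0.57 on the log2 scale for the members, 0.26 for replication and 0.60 for division genes, against 0.12 for all tested genes. Upper interval bounds of division genes reached 1.43 and lower bounds -1.47 on the log2 scale, so these libraries bound a group difference loosely. By counting error alone the library difference was large: 27 of 32 members had a Poisson interval in JIB-04 replicate 2 that lay above those of all other libraries (22 of 24 division genes and 5 of 8 replication genes).

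The size of the excess was also set against all genes. JIB-04 replicate 2 was the highest library for 24.2% of tested genes, and was at least 1.5 times the mean of the others for 5.11% and at least 2 times for 1.51%, or 218 genes. Of the 32 members 25 were past 1.5 times and 20 past 2 times, with a median of 2.09 against 0.99 over all tested genes. Those 20 are 62.5% of the members and 9.17% of the 218 genes. In no other library was a member at 2 times the mean of the rest, although 23 to 152 tested genes were. This library was singled out from these same values, so the counts describe it and test nothing.

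**Figure D4:**
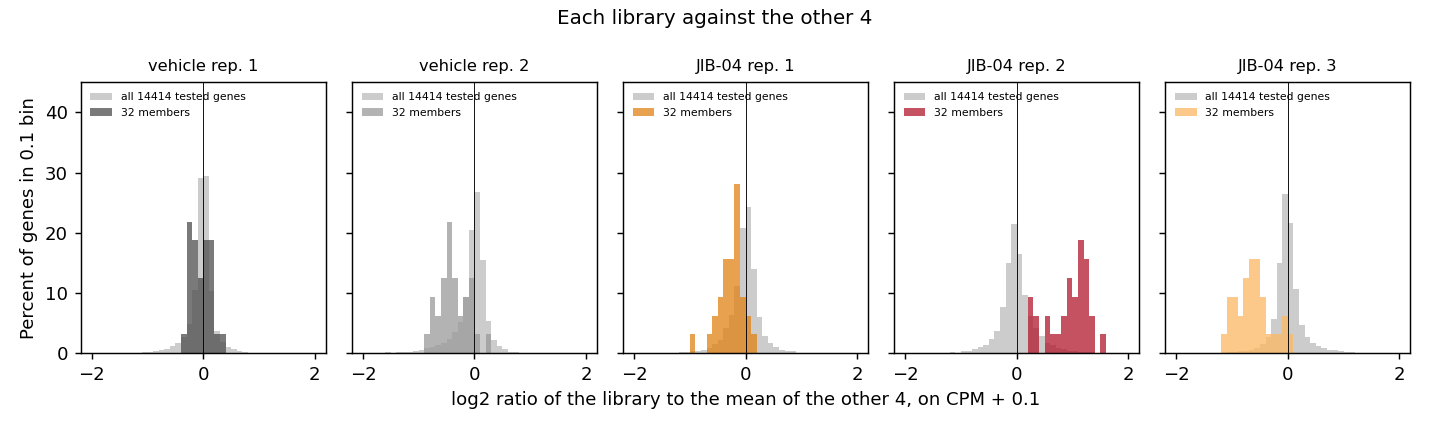
Distribution of the log2 ratio of each library to the mean of the other 4 (on CPM + 0.1), as percent of genes in bins of 0.1, for all 14414 tested genes (grey) and the 32 members (coloured). Members sit to the right of the bulk in JIB-04 replicate 2 and to the left in JIB-04 replicate 3.

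Further genes of the pathway, from lists that do not include the members, were set beside them. The difference between lists was not tested. Of 68 other mitosis genes tested, 0 passed limma's threshold in either direction, 50 had values above 0 (median 0.21, and -0.12 without JIB-04 replicate 2), and 62 were highest in JIB-04 replicate 2, 30 of them at 2 times the mean of the others or more. Kif15, a spindle motor, was at 0.91 and 0.65 CPM in vehicle and 1.23, 2.30 and 0.99 CPM in JIB-04, with no overlap between the groups (log2 fold change 0.80, limma adjusted p = 0.797). Cdca7 was at 1.40 and 1.01 CPM in vehicle and 1.65, 2.36 and 1.68 CPM in JIB-04 (0.61, adjusted p = 0.74). In all, 6 of the 68 had JIB-04 groups above vehicle without overlap, against 10.7% of tested genes, and 0 below, against 12%.

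Of 46 other replication genes tested, 0 passed in either direction, the median was 0.02, and 5 were at 2 times the mean of the others in JIB-04 replicate 2. Mcm10, a factor that loads the replication machinery, was at 0.46 and 0.55 CPM in vehicle and 0.69, 1.29 and 0.88 CPM in JIB-04, with groups that did not overlap (log2 fold change 0.76, limma adjusted p = 0.737). Of the 46 genes, 2 were above vehicle without overlap and 1 below, against 10.7% and 12% of all tested genes. Replication dependent histone transcripts lack poly(A) tails, and in these poly(A) libraries 22 such genes summed to 2.78 to 3.84 CPM, with 3 tested and none passing.

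Regulators of cell cycle entry had 0 calls as well. The 9 G1 cyclins and kinases had a median of -0.05 on the log2 scale, and 0 were at 1.5 times the mean of the others in JIB-04 replicate 2. Ccnd1, cyclin D1, was at 120.5 and 120.2 CPM in vehicle and 108.0, 125.9 and 104.3 CPM in JIB-04. The 21 E2F, Rb and DREAM genes had a median of -0.01. Tfdp2, a partner of E2F factors, was below vehicle in every JIB-04 library, at 102.7 and 112.9 against 93.5, 68.5 and 85.0 CPM (log2 fold change -0.40, limma adjusted p = 0.712). Of these 21 genes, 3 were below vehicle without overlap and 2 above, against 12% and 10.7% of all tested genes. Among 16 tested cyclin kinase inhibitors and brakes the median was -0.02, with 8 values above 0. Cdkn1c, the inhibitor p57, was at 7.42 and 8.37 CPM in vehicle and 6.09, 4.31 and 5.43 CPM in JIB-04, without overlap (log2 fold change -0.58, limma adjusted p = 0.625). Of these 16 genes, 2 were below vehicle without overlap and 2 above, set against the same 12% and 10.7%. JIB-04 replicate 2, highest for the division genes, was the lowest library for Cdkn1c and Tfdp2, but their lists did not share this. It was the highest library for 4 of the 16 inhibitors and brakes and 10 of the 21 E2F, Rb and DREAM genes, against 24.2% of all tested genes. At 2 times the mean of the others or more were 0 of the 16 and 4 of the 21, against 1.51% of all tested genes. Median ratios of that library to the mean of the others were 1.04 and 1.06 for these lists.

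Marker lists of other cells show what moved with the library that stood apart. Fibroblast markers summed to 3632 CPM in JIB-04 replicate 2, the highest, against 2298 to 3257 CPM elsewhere. Of the 8 fibroblast markers, Col1a1, Col1a2, Col3a1 and Postn were at 1.51 to 1.95 times the mean of the others in that library. The rest did not share an excess of that size. Lum was at 1.16 times that mean, and Dcn and Tcf21 were highest in other libraries. Pdgfra was lowest in JIB-04 replicate 2, at 46.7 CPM against 52.2 to 55.8 CPM. Endothelial markers summed to 940 CPM in JIB-04 replicate 2, against 727 to 828 CPM elsewhere. Cardiomyocyte markers summed to 82565 CPM there, the lowest, against 96746 to 110652 CPM. In contrast, the sum of the 14 macrophage markers was highest in JIB-04 replicate 3 (585 CPM), where division genes were lowest. It stood at 503 CPM in JIB-04 replicate 2 and 271 to 375 CPM in the other 3 libraries. Emr1 and Cx3cr1 were highest in JIB-04 replicate 2, and Mertk and Cd163 in vehicle replicate 1. Of the 14, 7 were above vehicle in every JIB-04 library and 0 below (10.7% and 12% of all genes). By limma 9 were higher at an unadjusted p under 0.05 (4.11% of all genes), and 0 passed the threshold. T and NK cell markers summed to 2.90 to 5.10 CPM and B cell markers to 1.69 to 3.66 CPM, with the highest sums in JIB-04 replicate 1. The 6 pericyte and smooth muscle markers had a median ratio of 1.10 in JIB-04 replicate 2, and 3 of 6 were highest there. Their sum was nevertheless lowest in that library (1327 CPM, against 1426 to 1960 CPM), because Acta2 made up most of it and stood at 908 CPM there, 0.65 times the mean of the others. Epicardial markers summed to 5.13 to 9.32 CPM, and neutrophil markers were highest in JIB-04 replicate 3 (14.9 CPM). The sums of erythroid markers did not overlap between the groups. These sums, with the beta globin rows Hbb-b1 and Hbb-bs counted once because they hold identical values, were 3539 and 2368 CPM in vehicle and 1017, 1859 and 1337 CPM in JIB-04. Of the 6 tested, 3 were below vehicle in every JIB-04 library (12% of all genes) and had an unadjusted limma p under 0.05, and 0 passed the threshold (smallest adjusted p = 0.47). A list of 12 hepatocyte markers, added after the values were seen, summed to 25.9 CPM in JIB-04 replicate 2 and 5.73 to 19.3 CPM in the others, with Alb at 0 in JIB-04 replicate 1. The part of any of these cell types in the division gene values was not tested.

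**Figure D5:**
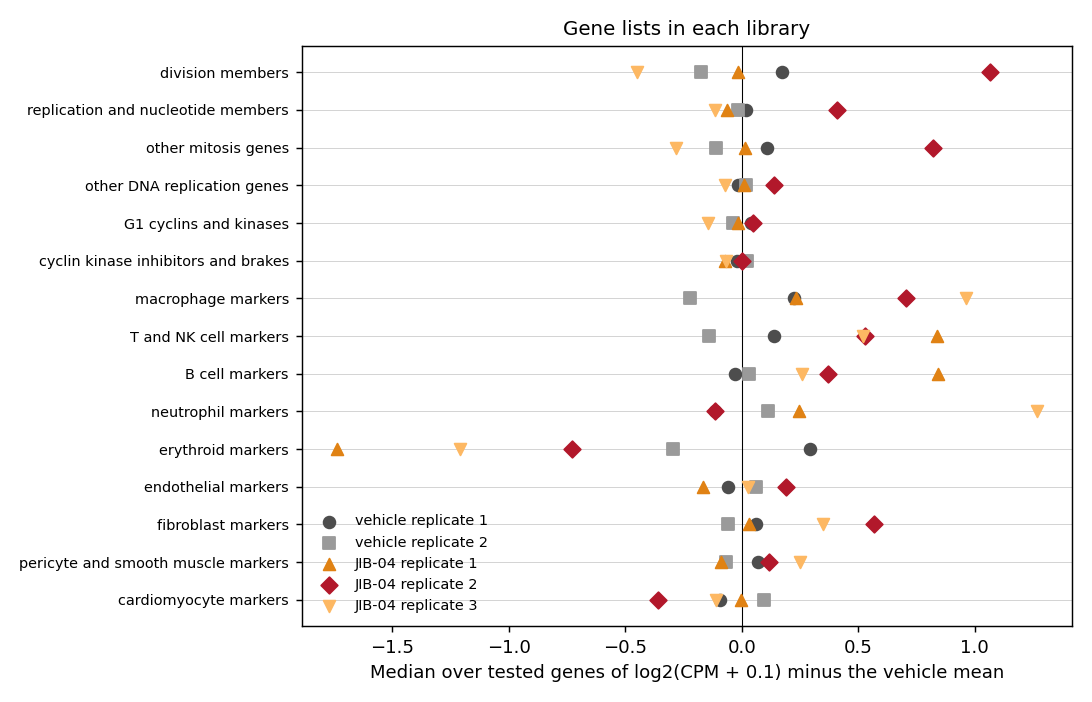
Median over the tested genes of each list of log2(CPM + 0.1) minus the vehicle mean, with 1 point per library. Division genes and other mitosis genes reach 1.07 and 0.82 in JIB-04 replicate 2, while macrophage and neutrophil markers are highest in JIB-04 replicate 3.

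Levels can be compared between genes only per length, here as CPM per kilobase of annotated exon. In vehicle, Pcna led at 17.8 CPM per kilobase, followed by Mcm6 (2.89), Mcm2 (2.55), Mcm3 (2.44), Rrm2 (2.25), Rrm1 (2.06) and Mcm5 (1.51). The 24 division genes were all at 1.29 CPM per kilobase or lower, with a median of 0.71, while among replication genes Tyms alone was below this highest division value, at 0.39. Cenpe and Cenpf were lowest, at 0.23 and 0.27. Along this order the vehicle libraries of neighbours overlapped in all but 5 of 31 pairs. The 5 pairs that stood apart were Pcna and Mcm6, Mcm6 and Mcm2, Rrm2 and Rrm1, Rrm1 and Mcm5, and Kif11 and Ccnb1. Lengths are unions of all annotated exons, 6089 bases for Tyms, so this order and the place of Tyms in it depend on that choice. For Pcna, Tyms, Ccnb1 and Ccnb2, 4 members with pseudogenes annotated under their own symbol, reads could be shared with copies, and their values are less certain. Copies annotated under other names were not searched for.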

How the data were processed

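mRNA of 5 heart samples was sequenced from stranded libraries after Trizol extraction, per the labels. The submitters' processing notes list, in no stated order, TopHat2 2.0.12, FastQC 0.11.2, edgeR, Subread, featureCounts, Picard 1.127 and the build mm10. How multiply mapped reads and strand were counted is not given in the sources used here. The deposited values are headed CPM but were treated as a normalised signal, because the columns the authors deposited summed to 954981 to 1046902. Dividing by the step of 1 read gave whole reads for 100% of values (within 0.01), and these reads served the count tests. The 1 row with a blank name was left out (0% of signal).

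Genes kept by edgeR's filterByExpr (minimum 10 reads, 15 in total) were tested with limma 3.58.1 (R 4.3.3; trended variance) on log2(CPM + 0.1), two-sided, with Benjamini-Hochberg adjustment over 14414 genes. The pseudocount was 0.1 because the lowest members lie near 1 CPM. It still shrinks the change of the lowest genes. edgeR 4.0.16, DESeq2 1.42.0, limma-voom, other pseudocounts and filters, plain library totals, the replicate number as a block and leaving out each library were alternatives. Sums carry 95% exact Poisson intervals, and the smallest exact permutation p that 2 against 3 libraries allow is 0.1, so none was used. Exon lengths are from GENCODE M21 and promoters from RefSeq. Members and lists were chosen with earlier results of these data known. Values per library are given for the 3 members of each role with the smallest limma p (27 in all), and for other pathway lists up to 3 such genes were eligible.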

Additional observations from a re-analysis of the deposited data

How the results depend on the processing

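Across the alternatives 0 of 32 members were called, with at most 1 at an unadjusted p under 0.05. The median log2 fold change of the members was 0.15 to 0.30 under other pseudocounts, filters, scalings and tools. It ran from -0.20 to 0.44 with 1 library left out. The log2 ratio of the summed member level, 0.19, ran from -0.13 to 0.37 in the same way. Each lower end came without JIB-04 replicate 2. Where a vehicle library was left out, the other was assumed to vary like the JIB-04 group. Over all genes limma called 0 (953 at an unadjusted p under 0.05), edgeR 0 (946), DESeq2 86 (823) and limma without JIB-04 replicate 1 38, so these counts ran from 0 to 38 with 1 library left out. The replicate block gave 0 calls and a median of 0.44. Replicate number 3 occurs only in JIB-04, so log2 fold changes under this block were those without JIB-04 replicate 3. Deviations of same-numbered libraries from their group means had correlations of -0.09 and -0.08. The deviations of the 2 vehicle libraries mirror each other, so these correlations cannot tell whether the numbers pair libraries. Of 27 members followed singly, 18 changed sign without JIB-04 replicate 2, 9 without vehicle replicate 2 and 4 each without JIB-04 replicate 3 or under the replicate block. With 1 library left out at a time, log2 fold changes ran from -0.71 to 0.29 for Aurkb, -0.22 to 0.40 for Birc5, -0.30 to 0.61 for Bub1 and -0.10 to 0.64 for Ccna2. They ran from -0.40 to 0.36 for Cdc20, -0.39 to 0.26 for Cdca3, -0.30 to 0.58 for Cdca8 and -0.15 to 0.54 for Cdk1. The ranges were -0.32 to 0.43 for Cenpe, -0.33 to 0.27 for Cenpf, -0.11 to 0.51 for Kif11 and -0.083 to 0.79 for Kif23. Leaving out libraries gave -0.24 to 0.0040 for Mcm2, -0.0068 to 0.30 for Mcm6, -0.25 to 0.61 for Mki67 and -0.10 to 0.61 for Nusap1. Further ranges were -0.080 to 0.064 for Pcna, -0.17 to 0.45 for Plk1, -0.011 to 0.20 for Rrm1 and -0.24 to 0.10 for Rrm2. The last were -0.10 to 0.76 for Top2a and -0.32 to 0.26 for Ube2c. Aurkb was 0.24 by DESeq2 and edgeR, 0.015 with a pseudocount of 1 and 0.29 under the replicate block, where Mcm2 was 0.0040, Rrm2 0.10 and Ube2c 0.22. Ube2c was 0.0099 by DESeq2, 0.0094 by edgeR and 0.018 with plain library totals. Depth limits the lowest members, with 27 to 66 reads for Aurkb and Bub1 outside JIB-04 replicate 2.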

Other observations

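Cyp1a1, a cytochrome P450 that ligands of the aryl hydrocarbon receptor induce, had the largest ratio among tested genes in the library where the proliferation genes were highest. It was singled out after the values were seen. Vehicle values were 0.08 and 0.03 CPM, and JIB-04 values were 0.39, 4.71 and 0.48 CPM, where replicate 2 was 19.1 times the mean of the other libraries. Both vehicle values were at or under 3 reads, so no fold against vehicle is given (limma adjusted p = 0.722). They also enter the mean behind that ratio, so its size rests in part on values near the floor. Of the 21 E2F, Rb and DREAM genes, 4 were also at 2 times the mean of the others or more in that library, and among the 16 tested inhibitors and brakes 0 were. The share over all tested genes was 1.51%.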
